A study of Mus musculus with 12 samples.

Results

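The 10 core genes of the circadian clock, Arntl, Clock, Per1, Per2, Per3, Cry1, Cry2, Nr1d1, Nr1d2 and Dbp, were followed in mouse skin wounds treated with capsaicin (CAP), the pungent compound of chili peppers and an agonist of the ion channel TRPV1. They were taken by name from the 55487 genes listed for each library; the list uses no measured value, but it was drawn up with earlier results of these data known. The wounds were full-thickness dorsal skin punches in C57BL/6JNarl male mice, 6 weeks old, kept singly in a 12/12 h cycle of light and dark, with no genetic alteration named for any group. The sham group received Pluronic F127 gel alone once daily, and the CAP group received 10 µM CAP in the same gel, so that wounding and gel were shared by all groups. RNA of the wound with the surrounding skin was sequenced at day 3 and day 6 after wounding, with 3 libraries in each of the 4 groups. Each mouse bore a pair of wounds, and the sources used here do not tell whether a mouse gave more than 1 library, so the p values measure the spread between these libraries, part of which may be technical. The hour of collection is not stated in these sources either. The day of healing and the hour of the day therefore cannot be told apart in any comparison of day 6 with day 3. Whether sham and CAP wounds of a day were collected at the same hour is not stated. Treatment and hour therefore cannot be told apart either, in the comparisons of CAP with sham or in the interaction.

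The clock is a loop of transcription and repression with a period of about a day. BMAL1 (the product of Arntl) and CLOCK bind E-box sequences and activate the Per and Cry genes, Nr1d1, Nr1d2 and Dbp. PER and CRY proteins then repress BMAL1 and CLOCK, and the nuclear receptors encoded by Nr1d1 and Nr1d2 (REV-ERBα and REV-ERBβ) repress Arntl. In mouse tissues, skin included, Arntl RNA is high when RNA of Nr1d1, Dbp and the Per genes is low, and the reverse, so that the levels at one harvest depend on the hour. DBP and its relatives TEF and HLF activate genes through the D-box, which the repressor NFIL3 also binds.

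All 10 genes were above the minimum of 0.3 TPM (a transcript abundance corrected for transcript length and scaled to the same total in every library) in every library. Over the 12 libraries, Per1 had the highest mean level, 101 ± 18.3 TPM (SD, n = 12), followed by Nr1d1 with 89.6 ± 16.9 TPM and Dbp with 67.5 ± 20.1 TPM. The mean level was 37.5 ± 4.91 TPM for Nr1d2, 20.3 ± 2.92 TPM for Cry2, 19.5 ± 6.12 TPM for Arntl and 12.5 ± 4 TPM for Per3. Clock, Per2 and Cry1 had the lowest, 12.3 ± 1.02 TPM, 10.4 ± 4.84 TPM and 8.88 ± 1.77 TPM. Of the neighbours in this order, only Nr1d2 and Cry2 had ranges over the 12 libraries that did not overlap. Even Cry1 was at the 44.5th percentile of 19046 expressed genes. Exons of Dbp share 18.0% of their bases with Sphk2 on the other strand, and exons of Nr1d1 share 8.55% with Thra. The strand setting of the counting was not stated, so reads of these pairs may not be told apart.

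The libraries held 18533 to 19325 genes at 0.3 TPM or more, and the number of reads behind them is unknown. Markers of keratinocytes, fibroblasts, macrophages, neutrophils, endothelial cells and skeletal muscle were all present in every group. The summed level of 6 keratinocyte markers was 27300 to 52100 TPM at day 3, 27500 to 32500 TPM in the sham group of day 6 and 45300 to 94300 TPM in the CAP group of day 6. CAP day 6 replicate 2 stood apart, with the highest keratinocyte sum and 14.1% of its TPM in its 10 most abundant genes, against 8.27% to 11.3% in the others. In bulk tissue, fewer cells of a type and less RNA per cell cannot be told apart.

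Promoters of 9 of the 10 genes were matched by symbol in a RefSeq table of build GRCm38.p6; the gene without an entry was Per2. Stretches before the start site are shown for Arntl, which rose from day 3 to day 6, for Per3 and Nr1d2, whose levels followed Dbp closely, and, for contrast, for Per1, whose day difference did not pass the test. Capitals mark an E-box (CACGTG) or its variant CACGTT, a D-box (TTATGTAA or TTATGCAA), the nuclear receptor half-site AGGTCA or a CRE (TGACGTCA), each searched on both strands. The Per1 stretch precedes a start site that lies inside the annotated gene, and the Nr1d2 stretch ends before an annotated exon.
Arntl, chr7:113207215-113207464, plus strand: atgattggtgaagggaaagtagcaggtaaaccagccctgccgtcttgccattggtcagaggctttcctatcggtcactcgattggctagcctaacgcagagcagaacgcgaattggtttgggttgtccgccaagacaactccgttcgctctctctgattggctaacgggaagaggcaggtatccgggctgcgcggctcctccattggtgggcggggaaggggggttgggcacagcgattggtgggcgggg
Per1, chr11:69098699-69098947, plus strand: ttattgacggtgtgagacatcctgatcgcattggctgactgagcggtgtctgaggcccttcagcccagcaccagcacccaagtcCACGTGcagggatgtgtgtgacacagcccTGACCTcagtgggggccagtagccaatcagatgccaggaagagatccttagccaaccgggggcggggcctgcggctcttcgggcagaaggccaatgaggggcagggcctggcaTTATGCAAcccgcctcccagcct
Per3, chr4:151044666-151044915, minus strand: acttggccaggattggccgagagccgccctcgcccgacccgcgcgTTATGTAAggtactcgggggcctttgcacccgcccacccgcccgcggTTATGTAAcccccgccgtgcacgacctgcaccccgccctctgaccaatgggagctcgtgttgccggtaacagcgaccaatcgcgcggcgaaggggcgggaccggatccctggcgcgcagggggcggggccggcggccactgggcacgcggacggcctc
Nr1d2, chr14:18239128-18239356, minus strand: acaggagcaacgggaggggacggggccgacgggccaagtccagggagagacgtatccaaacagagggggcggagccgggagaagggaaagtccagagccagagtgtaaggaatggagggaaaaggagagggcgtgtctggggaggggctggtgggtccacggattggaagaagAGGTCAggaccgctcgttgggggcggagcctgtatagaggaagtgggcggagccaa
The Per3 stretch holds 2 D-boxes, which begin at positions -205 and -158 from the start, and a D-box is found in 1.66% of the 32851 promoter windows of 300 bases in the table. The Per1 stretch holds an E-box, which 7.15% of windows have, a half-site on the other strand, which 16.3% have, and a D-box. The Nr1d2 stretch holds 1 half-site, and the Arntl stretch holds none of these letters, although the window of its other start site has 1 half-site after the start. Among the 9 genes, Per1 and Cry1 had the full E-box, and Cry1, Cry2 and Nr1d1 had the variant, which 4.68% of windows have. The CRE, in 1.79% of windows, was in none of the 9. These are matches of letters and no measure of binding.

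Between day 3 and day 6, Arntl rose and Per2 fell when both treatments were compared together. In this comparison of 6 libraries with 6, with treatment as a term, 2 of the 10 genes had an adjusted p under 0.05 (limma on log2(TPM + 0.1), Benjamini-Hochberg over 18490 genes), against 1.12% of all genes tested. At an unadjusted p under 0.05 there were 6 of 10, against 15.7%. Arntl was the higher one at day 6, and Per2, Per3, Cry1, Cry2 and Dbp were lower. None reached the threshold of the study, an unadjusted p under 0.05 with at least a 2-fold difference, which 2.10% of all genes did. The values of the days did not overlap for Arntl, Per2 and Cry2, 3 of 10, against 1.48%. The median log2 difference was -0.27 over the 10 genes and -0.02 over all genes. The tissue differed between the days as well. The summed level of 5 skeletal muscle markers was 1790 to 4960 TPM at day 3 and 1570 to 3170 TPM at day 6, and that of 5 endothelial markers was 70.6 to 124 TPM and 58 to 311 TPM. The part of the endothelial cells in the results was not tested, and values with the muscle or keratinocyte sum as a covariate are given below beside Arntl, Per2, Per3, Cry2 and Dbp. These covariates were added after the values were seen.

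**Figure D1:**
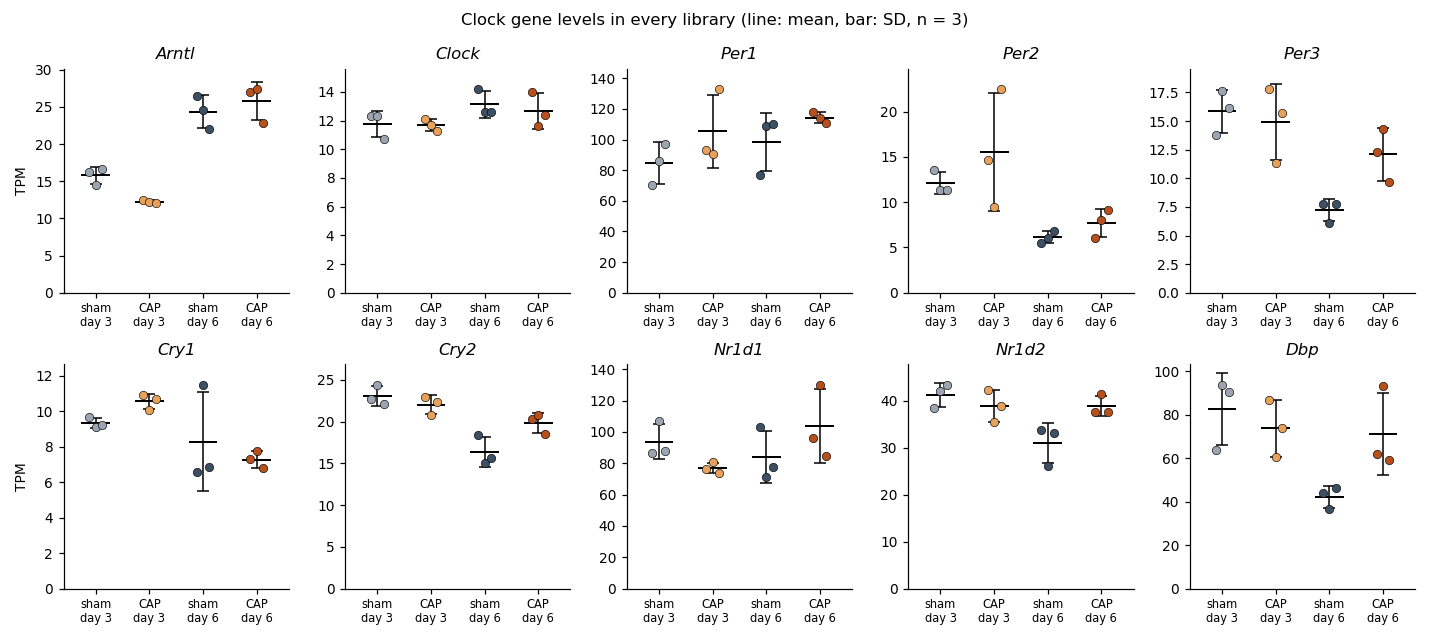
TPM of each of the 10 clock genes (vertical axes, from 0) in every library of the 4 groups, with the mean as a line and the SD as a bar (n = 3). Arntl stands at 12.1 to 16.6 TPM at day 3 and 22 to 27.4 TPM at day 6, and Per2 at 9.52 to 22.5 TPM and 5.53 to 9.11 TPM.

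Arntl (chr7:113207465-113314126, plus strand, mm10) encodes the activator BMAL1. Its level was 16.2, 14.5 and 16.6 TPM in the sham libraries and 12.5, 12.2 and 12.1 TPM in the CAP libraries of day 3. At day 6 it was 26.5, 24.6 and 22 TPM in the sham group and 27, 27.4 and 22.8 TPM in the CAP group. Every day 6 library was above every day 3 library. The log2 difference between the days was 0.84 (SE 0.10, adjusted p = 0.00703), or 1.79-fold, and by p Arntl ranked 3 among 18490 genes. The exact permutation test within treatments gave p = 0.005, the smallest it can give. The adjusted p stayed between 0.0058 and 0.0206 when any 1 library was left out. With the muscle sum as a covariate the difference was 0.89 and the adjusted p 0.0634, and with the keratinocyte sum they were 0.82 and 0.00114.

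Clock (chr5:76209868-76304792, minus strand) encodes the partner of BMAL1. It stayed within 10.7 to 12.3 TPM in the sham group and 11.3 to 12.1 TPM in the CAP group of day 3, and within 12.6 to 14.2 TPM and 11.6 to 14 TPM at day 6. Its difference between the days was 0.14, with a 95% interval of -0.03 to 0.30. Npas2, which can replace CLOCK as the partner of BMAL1, was past the threshold of the study, higher at day 6 by 1.03 (SE 0.29, limma p = 0.0038, exact permutation p = 0.02, adjusted p = 0.104). It had 4.77, 2.47 and 2.81 TPM in the sham libraries of day 3 and 11, 6.47 and 7.34 TPM in those of day 6. In the CAP libraries it had 1.43, 2.34 and 2.82 TPM and 4.23, 1.97 and 5.7 TPM, where the days overlapped. Arntl2, a homolog of Arntl, ranged over 7.14 to 10.7 TPM in all libraries.

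Among the Per genes, which encode repressors of BMAL1 and CLOCK, Per2 (chr1:91415982-91459324, minus strand) differed most between the days over both treatments, while within the sham group Per3 differed by more. It was at 13.5, 11.4 and 11.4 TPM in the sham libraries and at 14.7, 9.52 and 22.5 TPM in the CAP libraries of day 3. At day 6 it was at 5.53, 6.08 and 6.87 TPM in the sham group and at 6.03, 8.03 and 9.11 TPM in the CAP group. No day 6 library reached the lowest day 3 library, while the CAP libraries of day 3 were spread widely. Per2 fell by 0.95 on the log2 scale (SE 0.18, adjusted p = 0.0364; exact permutation p = 0.005, the smallest possible). The adjusted p was 0.0221 to 0.034 without CAP day 3 replicate 2 or 3 or CAP day 6 replicate 2, and 0.0567 to 0.0933 without any other 1 library. With the muscle sum as a covariate the difference was -1.09 (SE 0.25, adjusted p = 0.142), and with the keratinocyte sum it was -0.92 (SE 0.17, adjusted p = 0.0149).

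Per3 (chr4:151003652-151044665, minus strand) was at 13.8, 17.6 and 16.1 TPM in the sham libraries of day 3 and at 7.77, 6.11 and 7.79 TPM in those of day 6. In the CAP group it was at 17.8, 11.3 and 15.7 TPM at day 3 and at 12.3, 14.3 and 9.69 TPM at day 6, so the days overlapped in the CAP group and not in the sham group. Over both treatments the difference was -0.71 (SE 0.18, limma p = 0.00202, exact permutation p = 0.015, adjusted p = 0.0793). With the muscle sum as a covariate it was -0.51 (adjusted p = 0.394) and its unadjusted p was above 0.05, and with the keratinocyte sum it was -0.75 (adjusted p = 0.0155). Per1 (chr11:69095217-69109960, plus strand), which also responds to acute signals such as glucocorticoids, was at 70.1 to 97.4 TPM in the sham group and 90.3 to 133 TPM in the CAP group of day 3, and at 76.8 to 110 TPM and 111 to 118 TPM at day 6. Its difference between the days was 0.18, with an interval of -0.09 to 0.45.

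The Cry genes encode the partners of the PER proteins in repression, and neither passed the adjusted test between the days without a covariate. Cry2 (chr2:92403646-92434043, minus strand) was at 22.7, 24.4 and 22.1 TPM in the sham libraries and 23, 20.8 and 22.3 TPM in the CAP libraries of day 3. At day 6 it was at 18.4, 15 and 15.7 TPM in the sham group and 20.3, 20.8 and 18.5 TPM in the CAP group. The days did not overlap, by a narrow margin in the CAP group, and the difference was -0.32 (SE 0.08, limma p = 0.00258, exact permutation p = 0.005, adjusted p = 0.087). When the muscle sum was a covariate, the difference of Cry2 was -0.22 (adjusted p = 0.427) and its unadjusted p was above 0.05, and with the keratinocyte sum it was -0.34 (adjusted p = 0.0235). Cry1 (chr10:85131700-85185064, minus strand) was at 9.13 to 9.68 TPM in the sham group and 10.1 to 10.9 TPM in the CAP group of day 3, and at 6.79 to 7.77 TPM in the CAP group of day 6. In the sham group of day 6 it was at 6.56, 11.5 and 6.85 TPM, with replicate 2 apart from the others. The difference of Cry1 was -0.38 (adjusted p = 0.189) with this library and -0.51 (adjusted p = 0.0149) without it.

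The REV-ERB genes, whose products repress Arntl, did not pass the test between the days over both treatments. Nr1d2 (chr14:18204054-18239127, minus strand) was at 38.4, 42 and 43.4 TPM in the sham libraries of day 3 and at 33.7, 26.1 and 33.1 TPM in those of day 6, against 35.5 to 42.4 TPM and 37.6 to 41.4 TPM in the CAP group. Its difference was -0.21 with an interval of -0.43 to 0.00. Nr1d1 (chr11:98767932-98775333, minus strand) was at 86.8, 107 and 87.8 TPM in the sham libraries and 76.5, 80.6 and 73.8 TPM in the CAP libraries of day 3, and at 103, 71.3 and 77.7 TPM and 95.8, 130 and 84.8 TPM at day 6. The days overlapped when both treatments were compared together, and the difference was 0.12 with an interval of -0.20 to 0.43.

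Dbp (chr7:45705088-45710203, plus strand), an activator of D-box genes and a direct output of the clock, was at 63.6, 93.8 and 90.6 TPM in the sham libraries of day 3 and at 43.9, 36.5 and 46.3 TPM in those of day 6. In the CAP group it was at 87, 60.5 and 73.9 TPM at day 3 and at 61.8, 93.1 and 59 TPM at day 6. Each sham library of day 6 was below every other library, and the CAP libraries of the days overlapped. The difference over both treatments was -0.51 (SE 0.19, limma p = 0.0218, exact permutation p = 0.055, adjusted p = 0.218), and its unadjusted p was above 0.05 without sham day 3 replicate 2 or 3 or sham day 6 replicate 2. The difference of Dbp with the muscle sum as a covariate was -0.28 (adjusted p = 0.66) and its unadjusted p was above 0.05, and with the keratinocyte sum it was -0.56 (adjusted p = 0.0343). Tef, its relative, fell by 0.61 (SE 0.13, adjusted p = 0.0469), from 54.6 to 74.7 TPM in the day 3 libraries to 30.2 to 58.3 TPM in those of day 6, which overlapped.

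Within the sham group, Arntl rose by 0.62 (SE 0.11, adjusted p = 0.038), Per3 fell by 1.12 (SE 0.15, adjusted p = 0.0194), Per2 fell by 0.96 (SE 0.14, adjusted p = 0.0224) and Dbp fell by 0.95 (SE 0.17, adjusted p = 0.0398). These were 4 of 10 genes with an adjusted p under 0.05, against 2.29% of all genes. The exact permutation test gave p = 0.1 for each of the 4, the smallest it can give with 3 libraries against 3. At an unadjusted p under 0.05 there were 6 of 10, with Cry2 and Nr1d2 also lower, against 16.0%. Per3 alone was past the 2-fold threshold, against 3.75%, and 7 of 10 genes had values that did not overlap, against 21.4%. Without sham day 3 replicate 2 or 3 or sham day 6 replicate 3, 0 genes had an adjusted p under 0.05; without sham day 6 replicate 1 or 2 only Per3 had one, and without sham day 3 replicate 1 Per2, Per3 and Dbp had. No gene of the 10 had one with no filter on low values or in a joint fit of the 12 libraries (adjusted p of 0.0926 to 0.197 for the 4 in the joint fit), and only Per3 had one with the replicate numbers as a block. When single libraries were left out, the difference of Per3 was -1.22 to -1.01 and that of Arntl 0.56 to 0.69. The tissue of the sham group differed between the days too. Marker sums did not overlap for endothelial cells (77.7 to 112 TPM at day 3 and 228 to 311 TPM at day 6), skeletal muscle (3440 to 4960 TPM and 2090 to 3170 TPM), keratinocytes (33300 to 51600 TPM and 27500 to 32500 TPM), monocytes and macrophages (3670 to 5220 TPM and 6690 to 9620 TPM) and erythroid cells (280 to 416 TPM and 1130 to 3070 TPM). Their part in the sham differences was not tested.

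Within the CAP group, Arntl was past the threshold of the study, higher at day 6 by 1.06 (SE 0.12, limma p = 4.99e-05, exact permutation p = 0.1, adjusted p = 0.119), or 2.08-fold. This was 1 of 10 genes, against 2.79% of all genes, and it ranked 7 by p among 18202 genes. No clock gene of the 10 had an adjusted p under 0.05, which 0.00549% of all genes had. At an unadjusted p under 0.05 there were 4 of 10, against 11.6%: Arntl and Nr1d1 were higher, and Per2 and Cry1 lower. The values did not overlap for 5 of 10, against 17.7%. The difference of Cry1 was -0.54 (SE 0.12, limma p = 0.00391, exact permutation p = 0.1, adjusted p = 0.295). That of Per2 was -0.93 (SE 0.32, limma p = 0.0244, exact permutation p = 0.1, adjusted p = 0.369), and its unadjusted p was above 0.05 without CAP day 3 replicate 1 or 3 or CAP day 6 replicate 1. That of Nr1d1 was 0.40 (SE 0.16, limma p = 0.0455, exact permutation p = 0.1, adjusted p = 0.425), and its unadjusted p was above 0.05 without any 1 library other than CAP day 6 replicate 3. The differences of Per3, Nr1d2 and Dbp were -0.30, 0.00 and -0.07, with intervals of -0.82 to 0.23, -0.25 to 0.25 and -0.58 to 0.45. In the CAP group the marker sums that did not overlap between the days were those of fibroblasts (5680 to 8510 TPM at day 3 and 8580 to 11700 TPM at day 6) and T and NK cells (20.5 to 22.1 TPM and 35.8 to 55.1 TPM), whose part was not tested. With 3 libraries against 3, an exact permutation test cannot give a p below 0.1.

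**Figure D2:**
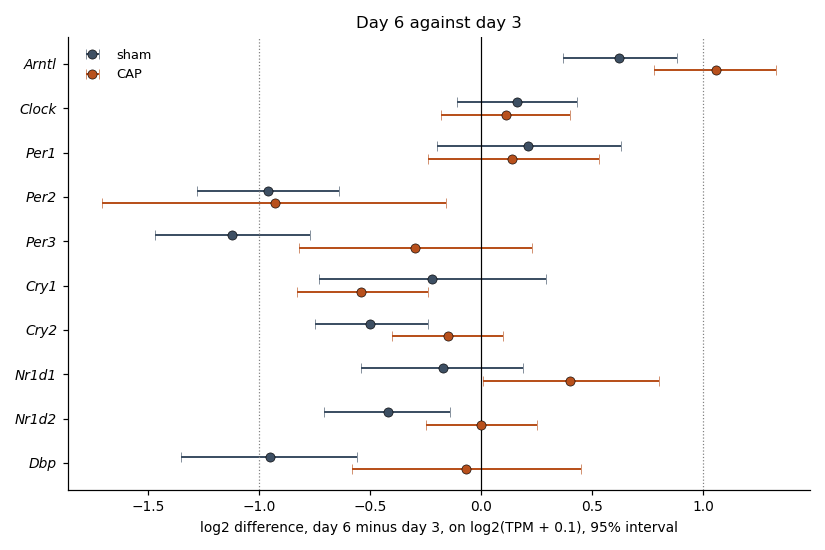
Log2 difference of day 6 minus day 3 (horizontal axis, on log2(TPM + 0.1)) with its 95% interval for the 10 genes, in the sham group and the CAP group; dotted lines mark 2-fold. Arntl lies right of 0 in both groups, while Per3 and Dbp lie at -1.12 and -0.95 in the sham group and at -0.30 and -0.07 in the CAP group.

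CAP was compared with sham at each day, where a difference in the hour of collection cannot be told apart from one of treatment. At day 3, 2 of 10 genes had an unadjusted p under 0.05, against 6.60% of all genes, and 0 of 10 were past the 2-fold threshold, against 1.58%. They were Arntl, with a difference of -0.36 in the CAP group (SE 0.10, limma p = 0.00934, exact permutation p = 0.1, adjusted p = 0.568), and Nr1d1, with a difference of -0.28 (SE 0.11, limma p = 0.0344, exact permutation p = 0.1, adjusted p = 0.73). For both, all 3 CAP libraries were below all 3 sham libraries, and for Cry1 all 3 were above. The share of all genes whose treatments did not overlap at day 3 was not counted, so these orders cannot be set against the rest of the genes. The unadjusted p of Nr1d1 was above 0.05 without sham day 3 replicate 2 or any 1 of the CAP libraries, after median-ratio or quantile scaling, and in the joint fit of the 12 libraries. The marker sums of erythroid cells (280 to 416 TPM in the sham group and 1280 to 1530 TPM in the CAP group) and of T and NK cells (22.8 to 33.6 TPM and 20.5 to 22.1 TPM) did not overlap between the treatments at day 3, and their part was not tested. The intervals of the 8 genes other than Arntl and Nr1d1 included 0, and the widest was that of Per2, -0.42 to 0.97.

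At day 6, Per3 and Dbp differed most between the treatments. The log2 difference of Per3 was 0.73 (SE 0.19, limma p = 0.00639, exact permutation p = 0.1, adjusted p = 0.208) and that of Dbp was 0.73 (SE 0.19, limma p = 0.00711, exact permutation p = 0.1, adjusted p = 0.208). For both, every CAP library was above every sham library. The same held for Per1, Cry2 and Nr1d2. The share of all genes with such values was not counted, so this order of libraries cannot be set against the rest of the genes. Nr1d2 differed by 0.34 (SE 0.13, limma p = 0.0349, exact permutation p = 0.1, adjusted p = 0.239), with an unadjusted p above 0.05 without sham day 6 replicate 2 or any 1 of the CAP libraries. Per3, Dbp and Nr1d2 were the 3 of 10 genes with an unadjusted p under 0.05 (limma), against 19.2% of all genes. Past the 2-fold threshold were 0 of 10, against 3.80%. The keratinocyte sum did not overlap between these groups either, nor did the endothelial sum, at 228 to 311 TPM in the sham group and 58 to 184 TPM in the CAP group. CAP day 6 replicate 2, with the highest keratinocyte and the lowest endothelial sum, also had the highest Dbp and Per3 of its group. Without this library the differences of Per3 and Dbp were 0.60 and 0.52 (adjusted p of 0.335 and 0.281). No covariate was fitted at day 6 alone. Arntl differed by 0.08, with an interval of -0.22 to 0.37.

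Over both days together, 1 of 10 genes had an unadjusted p under 0.05, against 16.0% of all genes, and 0 of 10 were past the 2-fold threshold, against 1.08%. It was Per1, with 70.1, 86.3 and 97.4 TPM in the sham libraries and 93, 90.3 and 133 TPM in the CAP libraries of day 3, and 76.8, 109 and 110 TPM and 118, 114 and 111 TPM at day 6. The groups overlapped, the difference was 0.27 (SE 0.12, limma p = 0.0497, exact permutation p = 0.065, adjusted p = 0.312), and the unadjusted p was above 0.05 without any 1 of 7 libraries.

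**Figure D3:**
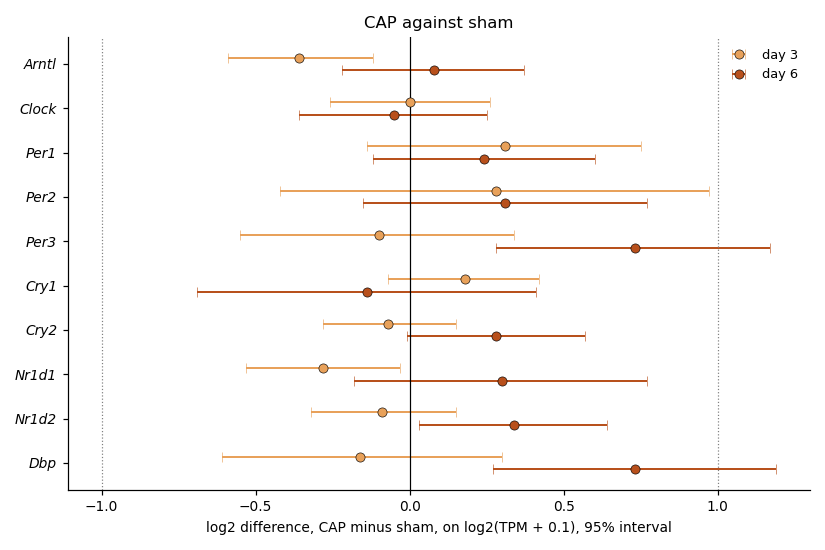
Log2 difference of CAP minus sham (horizontal axis, on log2(TPM + 0.1)) with its 95% interval for the 10 genes at day 3 and day 6; dotted lines mark 2-fold. Per3 and Dbp lie at -0.10 and -0.16 at day 3 and at 0.73 and 0.73 at day 6, and no interval lies wholly beyond 2-fold.

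The difference between the CAP effects of the days was tested as an interaction over the 12 libraries. It was positive, a CAP effect that was higher at day 6, at an unadjusted p under 0.05 for 6 of 10 genes, against 11.3% of all genes in either direction. The 6 were Dbp (0.89, SE 0.29), Per3 (0.83, SE 0.28), Nr1d1 (0.58, SE 0.24), Arntl (0.43, SE 0.15), Nr1d2 (0.42, SE 0.16) and Cry2 (0.35, SE 0.14). The adjusted p was 0.428 for each. Of the 20267 genes tested, 0 had an adjusted p under 0.05 (limma) and 2292 an unadjusted p under 0.05; 0 of the 10 were past the 2-fold threshold, against 4.90%. For Dbp, Per3 and Arntl the unadjusted p stayed under 0.05 without any 1 library, and for Nr1d2, Cry2 and Nr1d1 it did not without CAP day 6 replicate 2 and others. With the keratinocyte sum as a covariate, the unadjusted p of the 6 was 0.105 to 0.479, and the differences of Dbp and Per3 were 0.44 and 0.54. With the muscle sum the unadjusted p of the 6 was 0.0155 to 0.0408 (limma, adjusted p of 0.45 to 0.466). The differences of Dbp and Per3 were then 0.84 and 0.79. The comparisons within groups share libraries with this one and with each other, so their values stand side by side and are not independent.

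The ratio of a gene of the opposite arm of the loop to Arntl in the same library cancels any scaling factor of that library, apart from the effect of the pseudocount. The log2 ratio of Dbp to Arntl was 2.36 ± 0.36 (SD, n = 3) in the sham group and 2.56 ± 0.25 in the CAP group of day 3, and 0.79 ± 0.26 and 1.44 ± 0.29 at day 6. The day 3 libraries lay between 1.97 and 2.79 and the day 6 libraries between 0.56 and 1.76. At day 6 the sham libraries, up to 1.07, lay below the CAP libraries, from 1.19. The log2 ratio of Nr1d1 to Arntl was 2.56 ± 0.27 and 2.64 ± 0.06 at day 3 and 1.76 ± 0.22 and 1.98 ± 0.22 at day 6, where the treatments overlapped. The ratio of Per2 to Arntl, added after the values were seen, was -0.38 ± 0.14 and 0.25 ± 0.62 at day 3 and -1.97 ± 0.29 and -1.74 ± 0.42 at day 6. All 3 ratios were lower in every day 6 library than in any day 3 library. The ratios share Arntl, whose own days did not overlap, and the difference of Nr1d1 itself between the days was 0.12, so the order of the days in its ratio restates that of Arntl. In the CAP group the difference of Dbp itself was -0.07 and that of Arntl 1.06. The lower Dbp ratio of day 6 in that group thus mostly restates Arntl too. No test was made of the ratios.

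**Figure D4:**
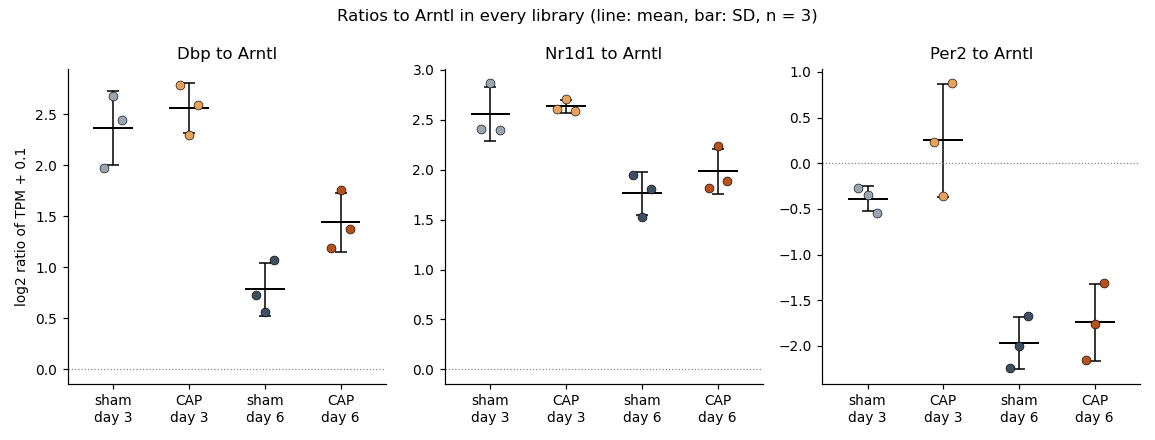
Log2 ratio of Dbp, Nr1d1 and Per2 to Arntl (vertical axes) in every library of the 4 groups, with the mean as a line and the SD as a bar (n = 3). The libraries of day 3 and day 6 do not overlap in any panel, and for Dbp the sham group of day 6 lies below the CAP group.

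Some of the genes varied little among libraries of a group. The SD of log2(TPM + 0.1) within groups was 0.10 for Cry2, 0.11 for Arntl and Clock and 0.14 for Nr1d2, 0.23 for Cry1 and Nr1d1, 0.25 for Per1 and Per3, 0.29 for Dbp and 0.36 for Per2. The median was 0.28 over 20267 genes and 0.18 over the 12341 genes with a mean level of 5 TPM or more. Within groups, the deviations of the 9 other genes from their group means showed no relation with those of Arntl that passed a test. Pearson's r ran from -0.31 for Per2 to 0.43 for Cry2 (permutation within groups, adjusted p of 0.836 to 0.856 over 9 genes), and Spearman's rho from -0.45 to 0.48 (adjusted p of 0.627 to 0.686). Without the 2 libraries farthest from the median of Arntl, r ran from -0.28 to 0.27. As a description over the same 12 libraries, r of the deviations was 0.89 between Per3 and Dbp, 0.81 between Per3 and Nr1d2 and 0.80 between Dbp and Nr1d2.

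Over the 12 libraries as such, among 16168 genes with a mean level of 1 TPM or more, the 5 most like Dbp were Per3 (r = 0.954), Cys1 (r = 0.954), Tef (r = 0.942), Nr1d2 (r = 0.937) and Foxo6 (r = 0.936). Of these, Per3 and Nr1d2 are among the 10 clock genes and Tef is a further clock gene. Cry2 held rank 28 with r = 0.865. At the other end were Tnfsf11, Cyp1b1, Mmp9, Nfkbia and Pdgfrb, with r of -0.951 to -0.919 and no clock gene among them. Nfil3, the repressor at the D-box, held rank 16090 with r = -0.851, and Npas2 held rank 16077 with r = -0.846. The 5 genes most like Arntl were Vgll3 (r = 0.958), Gcsam (r = 0.940), Tmem95 (r = 0.913), Eif3e (r = 0.909) and C4a (r = 0.904), with no clock gene among them. Per2 held rank 16132 with r = -0.839, and r with Arntl was -0.608 for Per3 and -0.461 for Dbp. It was positive for Nr1d1 (r = 0.429) and Per1 (r = 0.182). The lowest r was that of Ppbp, -0.945, followed by Ankrd13a, Pf4, Fanca and Ndufa12, with no clock gene among them. All genes share these libraries and their 4 groups, and any gene that differs between the groups shares that structure as well.

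**Figure D5:**
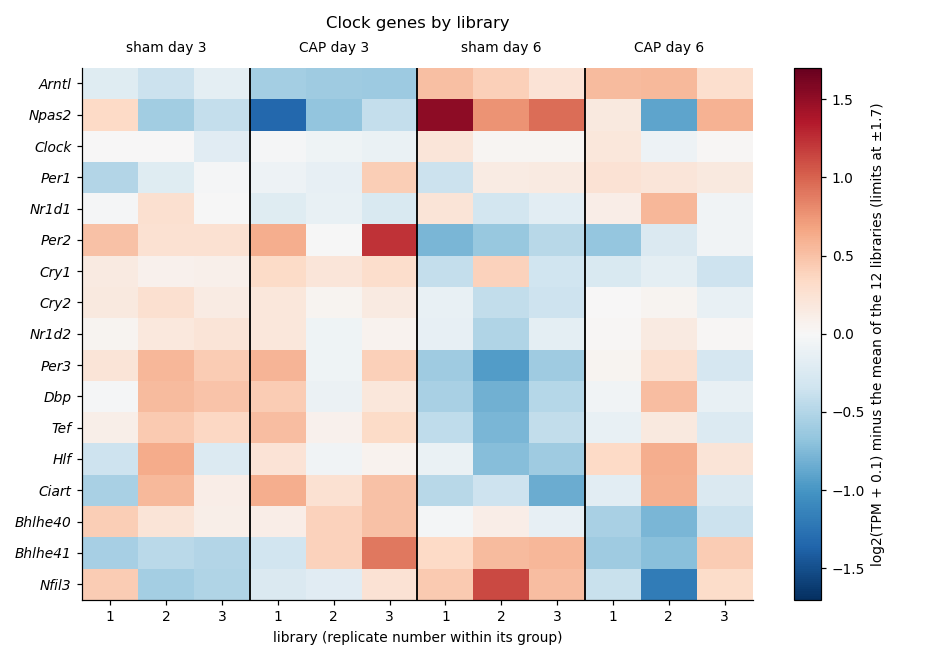
Log2(TPM + 0.1) minus the mean of the 12 libraries (colour, red for higher and blue for lower) for the 10 clock genes and 7 further clock genes (rows) in every library (columns, by group). Arntl is red throughout day 6 and blue throughout day 3, and Per3, Dbp and Tef are blue in the 3 sham libraries of day 6.

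The further genes of the clock were counted by their lists between the days over both treatments. In that comparison 1.12% of all genes had an adjusted p under 0.05 and 15.7% an unadjusted p under 0.05 (limma). Of Tef, Hlf and Nfil3, which act at the D-box, Tef had an adjusted p under 0.05, and the median difference of the 3 was -0.09. Of the 3 E-box repressors, 0 had an adjusted p under 0.05 and 2, both lower, an unadjusted p under 0.05 (limma), and the smallest p was that of Bhlhe40 (DEC1), which differed by -0.58 (SE 0.13, adjusted p = 0.0586). Of the 6 kinases, ligases and other regulators, 0 had an unadjusted p under 0.05 (limma), with a median of 0.02; the smallest p was that of Btrc, a subunit of a ubiquitin ligase, at 6.61 to 9.26 TPM in all libraries.

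Between CAP and sham at day 6, Npas2 and Nfil3 were the only genes of the further clock lists past the threshold of the study. Of all genes, 3.80% were past it. Npas2 differed by -1.13 (SE 0.40, limma p = 0.0259, exact permutation p = 0.1, adjusted p = 0.229) and Nfil3 by -1.11 (SE 0.38, limma p = 0.0215, exact permutation p = 0.1, adjusted p = 0.226). Nfil3 was at 34.5, 55.3 and 36.4 TPM in the sham libraries and at 19.5, 11.1 and 31.6 TPM in the CAP libraries. Over both days, the smallest p of the partners was that of Npas2, with a difference of -0.85 (adjusted p = 0.217). In the other lists it was that of Rora, which encodes a nuclear receptor that activates Arntl, with 0.39 (adjusted p = 0.281), Hlf with 0.47 (adjusted p = 0.297), Ciart, which encodes the repressor CHRONO, with 0.52 (adjusted p = 0.257) and Timeless with -0.30 (adjusted p = 0.316).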

How the data were processed

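The authors prepared paired-end mRNA libraries (SureSelect XT HS2), trimmed reads with Trimmomatic 0.36 and used build mm10 per the labels, and deposited StringTie TPM for 55487 genes per library; no aligner is stated. TPM carries no depth, so no counting error could be given, and precision rests on 3 libraries per group. Zeros are deposited as 0.0001 TPM. Differences were fitted with limma 3.58.1 (intensity trend) in R 4.3.3 on log2(TPM + 0.1), for genes reaching 0.3 TPM on average in each of the compared groups (interaction: in at least 1 of 4 groups), and p values were adjusted over all genes tested. Fold changes on this scale understate those of low genes. Intervals are 95% and tests 2-sided. The fits were tested on simulated data. The 10 genes and all lists were chosen with earlier results of these data known. Named are the 10, list genes past the threshold or with the smallest p of a list for the day or CAP comparison, and the 5 most like Arntl and Dbp; any others were named after their values were seen. A result of 1 further gene list is not reported here. Alternatives were pseudocounts of 1 and 0.01 TPM, no filter, median-ratio and quantile scaling, a replicate block, a joint fit of 12 libraries and leaving out each library. Promoter stretches (pandas 2.3.3, Python 3.11.15) leave out annotated exons.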

Additional observations from a re-analysis of the deposited data

Results flagged for a closer look

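The CAP effect differed between day 6 and day 3 at an unadjusted p under 0.05 for 16 of 42 clock and clock-linked genes examined, against 11.3% of all genes, by the interaction test of limma over 12 libraries. The differences (CAP effect at day 6 minus that at day 3, log2) were 0.43 for Arntl, 0.83 for Per3, 0.35 for Cry2, 0.58 for Nr1d1, 0.42 for Nr1d2 and 0.89 for Dbp among the 10 clock genes. Among the further genes they were 0.76 for Rora, 0.81 for Hlf, 0.77 for Csnk1e, 1.07 for Usp2 and 0.62 for Dnajb1, and -1.26 for Nfil3, -0.63 for Bhlhe40, -1.60 for Bhlhe41, -1.15 for Tspan4 and -0.73 for Nampt. The adjusted p was 0.435 for Hlf and 0.428 for each of the others, so none passed the correction. With the keratinocyte sum as a covariate the unadjusted p of each of the 6 clock genes was above 0.05, and with the muscle sum each was under 0.05.

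Csnk1e, which encodes casein kinase 1ε, had the smallest p of the 16, with 89.3 to 104 TPM in the sham group and 77.1 to 91 TPM in the CAP group of day 3, and 73.2 to 84.8 TPM and 106 to 132 TPM at day 6. Bhlhe41 (DEC2), an E-box repressor, was at 6.5, 6.99 and 6.8 TPM in the sham libraries and 7.67, 12.7 and 18.1 TPM in the CAP libraries of day 3, a wide range, and at 12.2, 14 and 14.3 TPM and 6.32, 5.84 and 13 TPM at day 6.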

How the results depend on the processing

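Of 1100 repeated differences of the 10 genes, 36 changed sign (a difference that rounds to 0.00 was given no sign), each with an unadjusted p above 0.05 before and after, 13 passed the threshold of the study that had not, and the others kept their side of it without a change of sign. Clock between treatments became 0.06 at day 6 and 0.06 over both days with median-ratio scaling, and 0.10 and 0.09 with quantile normalization, which also gave Cry1 0.04 at day 6 and the interaction of Clock 0.03. Per1 between the days was -0.09 with the muscle sum, and its interaction 0.01 with the muscle and 0.07 with the keratinocyte sum. When a library was left out, treatments differed by -0.03 to 0.59 (Per2) and -0.24 to 0.08 (Per3) at day 3, by -0.13 to 0.01 (Clock) and -0.28 to 0.12 (Cry1) at day 6 and by -0.03 to 0.15 (Cry1) and -0.10 to 0.08 (Nr1d1) over both days; Dbp differed between the days by -0.27 to 0.06 in the CAP group, and the interaction was -0.12 to 0.02 for Clock, -0.24 to 0.11 for Per1 and -0.28 to 0.34 for Per2. The number of genes with an adjusted p under 0.05 between the days in the sham group, 4, was 0 with no filter, 0 in the joint fit, 1 (Per3) with the replicate block and 0 to 3 when a library was left out; the number past the threshold, 1, was then 1 to 3. In the CAP group the number past the threshold, 1, was 1 to 2 when a library was left out, and the joint fit gave 1 gene, Arntl, an adjusted p under 0.05 in place of 0. Over both treatments the number with an adjusted p under 0.05, 2, was 1 with no filter, 1 to 3 when a library was left out, 5 with the keratinocyte sum and 0 with the muscle sum as a covariate; the number past the threshold, 0, was 1 with the muscle sum and 0 to 1 when a library was left out. For CAP against sham at day 6, 0 to 1 genes had an adjusted p under 0.05 when a library was left out, and for the interaction 0 to 1 were past the threshold. The log2 ratio of Nr1d1 to Arntl in the CAP group of day 3 was 2.55 with a pseudocount of 1 TPM, against 2.64. The cause of these changes was not tested. Replicate numbers only name the libraries: deviations of same-numbered libraries correlated at -0.17 to 0.29 over 16169 genes, and the replicate block changed no other of these counts, but the unadjusted p of Nr1d2 between the treatments at day 6 was then above 0.05. Median-ratio scaling moved the share of all genes that were higher in the CAP group from 37.8% to 52.2% at day 3, from 34.3% to 47.7% at day 6 and from 32.8% to 50.4% over both, and the median of all genes at day 6 from -0.12 to -0.02; Per3 and Dbp then differed at day 6 by 0.83 and 0.84. Alternatives are reported for the 10 genes only, and not for Tef, Npas2 or any other further gene. The depth behind TPM is unknown, so counting error is in none of these values.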

Other observations

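Genes linked to inputs of the clock were counted as well. Of 5 glucocorticoid targets, Fkbp5, Sgk1, Zbtb16, Dusp1 and Tsc22d3, 0 had an adjusted p under 0.05 between the days over both treatments (limma), against 1.12% of all genes. At an unadjusted p under 0.05 (limma) there were 2 of the 5, against 15.7%, and they went in opposite directions. Dusp1 was higher at day 6, with a difference of 0.62, and Zbtb16 was lower. The median difference of the 5 was 0.25. The smallest p was that of Zbtb16, which encodes the zinc finger protein PLZF, with a difference of -0.74 (SE 0.20, adjusted p = 0.0895) between the days and 0.64 (SE 0.20, adjusted p = 0.195) between CAP and sham over both days. It was at 8.23, 8.64 and 16.7 TPM in the sham libraries and 14.2, 14.3 and 17.7 TPM in the CAP libraries of day 3, and at 4.97, 7.51 and 5.3 TPM and 7.49, 10.1 and 12.8 TPM at day 6.

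Of 6 genes that respond to temperature, Cirbp, Rbm3, Hspa1a, Hspa1b, Hsph1 and Dnajb1, 0 had an unadjusted p under 0.05 between the days over both treatments (limma), against 15.7% of all genes. The smallest p was that of Hsph1, with a difference of 0.20 (SE 0.09, adjusted p = 0.332). The cold-inducible RNA-binding protein genes Cirbp and Rbm3 ranged over 64.4 to 84.9 TPM and 427 to 547 TPM in the 12 libraries. Between CAP and sham over both days, the smallest p was that of Hspa1a, a heat shock gene, with a difference of 0.36 (SE 0.18, adjusted p = 0.352). At day 6 alone, 3 of the 6 were higher in the CAP group at an unadjusted p under 0.05 (limma), against 19.2% of all genes. They were Hspa1a, Hspa1b and Dnajb1, with differences of 0.64, 0.71 and 0.47 (exact permutation p = 0.1 for each, adjusted p of 0.229 to 0.231). Hspa1a and Hspa1b are near-identical copies, so the split of reads between them is uncertain.

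Of 5 genes that are rhythmic in many mouse tissues, Usp2, Tspan4, Tsc22d3, Wee1 and Nampt, 0 had an unadjusted p under 0.05 between the days over both treatments (limma), against 15.7% of all genes. The smallest p was that of Tsc22d3, at a difference of 0.25 (SE 0.22, adjusted p = 0.658). Between CAP and sham over both days the smallest p was that of Wee1, a kinase that restrains entry into mitosis, with a difference of 0.59 (SE 0.18, adjusted p = 0.2). Usp2, a deubiquitinase, was named after its values were seen. It was at 20.4, 20.5 and 19.9 TPM in the sham libraries and 37.9, 53.3 and 31.6 TPM in the CAP libraries of day 6. Its difference was 0.98 (SE 0.19, exact permutation p = 0.1, adjusted p = 0.205). At day 6, 2 of the 5 genes were higher in the CAP group and 1 lower at an unadjusted p under 0.05 (limma), against 19.2% of all genes. The lower gene was Tspan4, with a difference of -0.76.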
